A study of Mus musculus with 12 samples.

Results

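PYMT-R221A is a mouse mammary tumour cell line, and the values here describe its untreated transcriptome, the genes the cells expressed and those they did not, before any compound or siRNA was added. The 3 libraries whose treatment label is control were taken out of the 12 libraries of the series, and all 55335 genes of the count table were ranked by their mean level in those 3. The labels' protocols give column-purified polyadenylated RNA, read on a NovaSeq X instrument. The other 9 libraries, from cells given the compound KCC-07 at 40 µM, scramble siRNA or siRNA against Mbd2, were not compared with the controls. The labels give the control libraries as biological replicates 1, 2 and 3, although the library name of replicate 3 carries the number 4, and the series' design text calls the cells wildtype. PyMT is the polyoma virus middle T antigen, an oncoprotein that starts mammary tumours when mouse mammary epithelium carries it as a transgene. Its promoter in this line, the mouse strain, whether the line is 1 clone, the vehicle and the time in culture are not given in the sources used here, and the viral gene itself was not analysed here.

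The mammary duct has an inner layer of luminal cells, built on keratins 8 and 18 and able to make milk, and an outer layer of basal myoepithelial cells, built on keratins 5 and 14 and able to contract. Middle T antigen has no enzyme activity of its own, and works as a scaffold that binds protein phosphatase 2A, Src family kinases, Shc1 and phosphatidylinositol 3-kinase, so that a cell receives growth signals with no ligand. A tumour line in culture also keeps, loses or gains receptors, matrix genes and immune signals of the tissue it came from.

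Total counts were 33.4, 29.8 and 34.0 M in replicates 1, 2 and 3. Levels are CPM, counts scaled to a library of 1000000 with TMM factors of 1.01, 0.99 and 1.00, and the value of each gene is given in the order of replicates 1, 2 and 3. One CPM stood for 29.6 to 34.0 counts. A gene was called expressed at 1 CPM or more in each library, and at the floor where each library held at most 3 counts (0.0883 to 0.101 CPM), the level that an observed count of 0 still allows by counting error alone. By this rule 12364 genes (22.3% of 55335) were expressed, 5364 were low and 37607 were at the floor. Of the 21899 protein-coding genes, 11383 (52.0%) were expressed, 36.9% were at the floor and 28.7% had no count in any control library. Of the 831 members of the gene lists below, chosen with earlier results of these data known, 594 (71.5%) were expressed. Ranks by CPM follow how many reads a gene took, and levels of different genes are otherwise compared after division by exon length, as CPM per kb of exon. That length is the union of all exons of a gene, which can exceed the transcript that the cells made. The SD over libraries does not measure this, so orders per kb hold for that length alone. All values are descriptions of 3 libraries and carry no p-value.

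Replicate 3 stood apart from the other libraries. Of 10867 genes with a mean of at least 5 CPM, 70 (0.644%) differed at least 2-fold between replicates 1 and 2, 547 (5.03%) between 1 and 3, and 376 (3.46%) between 2 and 3. The biological coefficient of variation was 21.7% over the 3 libraries and 13.2% without replicate 3. Mitochondrially encoded genes took 1.45%, 1.47% and 2.81% of the counts. Between the highest and lowest library, 5.89% of protein-coding genes with a mean of at least 5 CPM ranged at least 2-fold. Of the list members at that level 95 of 548 (17.3%) did so. Without replicate 3, 12595 genes and 11532 protein-coding genes were expressed, so the count of expressed genes rests little on it, whereas the levels of chemokines and early response genes do and are given with and without it. What set replicate 3 apart was not tested. The strand setting of the counting is not given in the sources used here, and 229 of the 831 genes of the lists share exon bases with a gene on the other strand, so their counts are uncertain. Of the genes given with a value below, those that share 10% or more of their exon bases are Bak1, Ccn2, Ccna2, Ccnd1, Cd274, Cd276, Cdkn1c, Csf1r, Ctnnb1, Dll1, Dusp5, Fgfr3, Icam1, Il1a, Krt6a, Lef1, Mmp7, Nrarp, Ovol1, Pdgfa, Ppp2ca, Rb1, Tagln, Tgfb3 and Timp3. Counts of Actg1, Eef1a1, Hdac1, Igf2, Isg15, Lyz2, Mif, Oas1a, Pkm, Rplp1 and mt-Co1 are uncertain because near-identical copies exist elsewhere in the genome.

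The gene with the highest mean CPM was Igfbp5 (chr1:72857932-72874884, minus strand, GRCm38), which encodes a secreted protein that binds insulin-like growth factors and is made by the mammary gland as milk secretion ends. It had 6897, 8236 and 12182 CPM, a mean of 9105 ± 2748 (SD, n = 3). It took the most counts of any gene in replicate 3 alone, with 1.22% of all counts. In replicates 1 and 2 Eef1a1, the gene of the translation elongation factor, took the most. The first place of Igfbp5 thus rests on replicate 3, since without it the mean was 9034 CPM for Eef1a1 and 7567 for Igfbp5. Per kb of exon Igfbp5 took place 10, at 1516 ± 458 CPM per kb (SD), behind mitochondrially encoded genes, translation genes and cytoplasmic actin. The gene mt-Co1, of a subunit of cytochrome c oxidase, had 4822, 5246 and 9786 CPM, with replicate 3 the highest. It held the first place per kb, at 4284 ± 1781 CPM per kb (SD). Eef1a1 held the second, at 3357 ± 529.7 CPM per kb (SD), and the distance between them was smaller than the SD of mt-Co1. Behind them stood Actg1, a cytoplasmic actin, at 2284 CPM per kb, Rplp1, a protein of the large ribosomal subunit, at 2106 CPM per kb, and Ptma, an abundant nuclear protein of growing cells, at 1558 CPM per kb.

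Of the 20 protein-coding genes with the highest mean CPM, most serve translation, the cytoskeleton or energy supply. Actb had 4189, 3696 and 2927 CPM, the chaperone gene Hsp90ab1 had 3448, 3800.1 and 3509 CPM, and the glycolytic gene Pkm had 1952, 2392 and 2437 CPM. The list also held a desaturase of fatty acid synthesis, Scd2, with 1635, 1687 and 1828 CPM, whose libraries lay within 1.12-fold of each other. The 20 most abundant genes took 6.92%, 6.91% and 7.33% of the counts, the first 100 took 16.4%, 16.2% and 16.3%, and the first 1000 took 48.6%, 48.4% and 47.1%. No small group of genes therefore dominated any library. Among expressed protein-coding genes, 63 had a mean of 1000 CPM or more, 2324 of 100 to 1000, 7089 of 10 to 100 and 1907 of 1 to 10.

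Cells of the luminal lineage are marked by simple keratins and by junction proteins. In the luminal and simple epithelial list 23 of 24 genes were expressed, against 52.0% of all protein-coding genes. Krt8 (chr15:101996698-102004482) had 471, 588 and 495 CPM and its partner Krt18 (chr15:102028180-102032027) had 183, 212 and 153 CPM. Epcam (chr17:87635979-87651129), an adhesion molecule of epithelia, had 224, 235 and 224 CPM, and its libraries lay within 1.05-fold of each other. Cdh1, which encodes E-cadherin, had 255, 266 and 308 CPM, and Esrp1, an epithelial splicing regulator, had 263, 266 and 291 CPM. Per kb of exon Krt8 (265 CPM per kb) and Krt18 (127 CPM per kb) led the list, and the median over its members was 21.4 CPM per kb against 0.715 for all protein-coding genes. The given marker genes Krt8, Krt18, Epcam and Igfbp5 were thus all far above the median gene.

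Keratin 19 and several junction genes were close to the limit of the expressed class. Krt19, a keratin of many simple epithelia, had 1.31, 1.39 and 1.5 CPM, whereas Krt7 had 136, 178 and 177 CPM. The claudin genes of tight junctions differed from each other, with 23.4 CPM per kb for Cldn3, 1.52 CPM per kb for Cldn7 and 0.622 CPM per kb for Cldn4, the list's member that was not expressed in each library. Muc1, an apical mucin, had 2.41, 2.60 and 1.47 CPM, and Ocln, a tight junction protein, had 3.42, 3.75 and 3.33 CPM. Epithelial identity genes of this list thus spanned from under 1 to over 100 CPM per kb. In replicate 3, the epithelial regulators Ovol1 and Elf3 were lower. Ovol1 had 55.8, 41.9 and 3.06 CPM and Elf3 had 34.0, 42.5 and 9.98 CPM, whereas Grhl2, another epithelial regulator, had 92.8, 80.2 and 102 CPM, with replicate 3 the highest.

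Basal keratins were present beside the luminal ones, while contractile genes were near 0. Krt14 had 407, 439 and 501 CPM, and its level per kb (255 CPM per kb) was close to that of Krt8. Krt17 had 84.9, 70.6 and 80.9 CPM, Trp63, the regulator of basal epithelium, had 57.5, 56.3 and 56.5 CPM, and the integrin genes Itga6 and Itgb4, whose products anchor basal cells to laminin, had 382, 446 and 550.3 CPM and 208, 226 and 376 CPM. Trp63 was among the steadiest genes, with a highest library 1.02 times the lowest. Krt5, the usual partner of Krt14, had 6.07, 3.08 and 31.7 CPM, so that replicate 3 stood 6.94 times above the mean of the others. The basal list thus held genes at very different levels.

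The contractile protein genes of myoepithelium did not reach 1 CPM in any library. Acta2, smooth muscle actin, had 0.892, 0.879 and 0.235 CPM, Myh11, smooth muscle myosin, had 0.327, 0.203 and 0.118 CPM, and Cnn1, calponin, had 0.178, 0.169 and 0.265 CPM. Tagln had 0.595, 0.271 and 0.118 CPM. Oxtr, the receptor for the hormone that starts milk let-down, was just expressed, with 3.69, 3.38 and 1.71 CPM. Cdh3, the P-cadherin gene of myoepithelium, had 2, 2 and 0 counts, and Krt6a had 0, 1 and 1 counts. Of the 21 basal and myoepithelial genes, 13 were expressed (61.9%), 6 were low and 2 were at the floor. All protein-coding genes had 52.0% expressed and 36.9% at the floor. The keratins, p63 and laminin-binding integrins were among the expressed members, and smooth muscle actin, myosin and calponin were not.

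**Figure D1:**
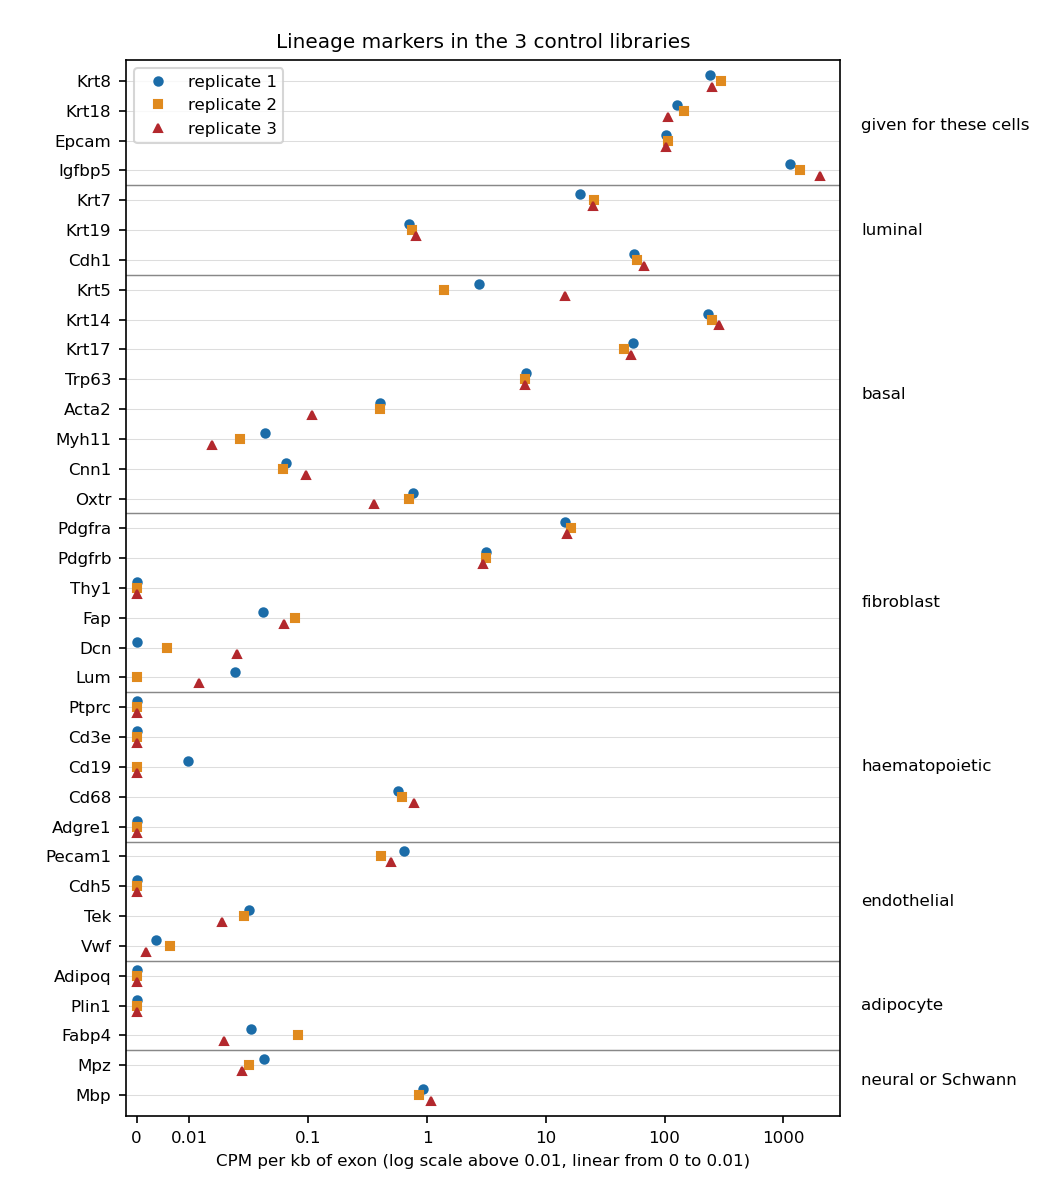
Level of each lineage marker in the 3 control libraries, as CPM per kb of exon on an axis that is logarithmic above 0.01 and linear from 0 to 0.01. Each point is 1 library, colour and shape give the replicate, and the markers are grouped by the cell type they stand for. Igfbp5, Krt8, Krt14, Krt18 and Epcam lie above 100 CPM per kb on average, whereas Ptprc, Cd3e, Adgre1, Cdh5, Thy1, Adipoq and Plin1 lie at 0 in all libraries.

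Genes of the mesenchymal state were divided. Vim, the intermediate filament of mesenchymal and many cultured cells, had 1017, 973 and 758 CPM, Fn1 (fibronectin) had 1046, 1496 and 1437 CPM, and Pdgfra, a receptor of platelet-derived growth factor found on fibroblasts, had 147, 162 and 152 CPM. Snai1, a repressor of Cdh1, had 44.5, 45.4 and 83.5 CPM, Twist1 had 13.8, 19 and 27.3 CPM and Cdh2, which encodes N-cadherin, had 79.5, 76.8 and 100.1 CPM. These stood beside a Cdh1 level of 60.5 CPM per kb, against 10.6 CPM per kb for Cdh2. Zeb1 and Zeb2, repressors of the epithelial program, were lower per kb, at 0.512 CPM per kb and 0.438 CPM per kb, and for Zeb2 replicate 3 was the lowest (10.2, 10.8 and 5.27 CPM). Mesenchymal and epithelial regulators were therefore both measured in the same RNA, and these bulk libraries do not show whether they came from the same cells.

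Most defining genes of fibroblasts had no count or under 1 CPM. Thy1, Cdh11 and Twist2 had no count in any library, Lum had 2, 0 and 1 counts and Dcn had 0, 1 and 5 counts. Fap had 0.238, 0.440 and 0.353 CPM and Prrx1 had 0.744, 0.609 and 0.648 CPM. Col1a2 had 0.178, 0.271 and 0.206 CPM and Col3a1 had 0.149, 0.135 and 0.118 CPM. In all, 13 of the 24 mesenchymal genes were expressed (54.2%), close to the 52.0% of all protein-coding genes. At the floor were 6, against 36.9%. The fibroblast markers Pdgfra and Pdgfrb (17.3, 17.2 and 16.1 CPM) thus lay above 1 CPM without Thy1, Dcn, Lum or Fap.

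Markers of blood, endothelial, fat and nerve cells were mostly at the floor. Of 20 haematopoietic genes, 15 were at the floor (36.9% of all protein-coding genes) and 11 had no count (28.7% of all protein-coding genes). Those with no count included Ptprc (CD45), Cd3e, Cd4, Cd8a, Ms4a1, Itgam, Itgax and Adgre1 (F4/80). The exceptions were Cd14, a receptor of bacterial lipopolysaccharide, with 131, 170.0 and 114 CPM, Kit with 8.18, 19.2 and 18.2 CPM, Csf1r with 4.16, 4.50 and 2.18 CPM and S100a8 with 3.33, 3.75 and 3.86 CPM. The summed level of the list was 147, 198 and 139 CPM, nearly all of it Cd14. Lyz2, an abundant gene of macrophages, had 1, 1 and 0 counts. In bulk RNA, fewer cells of a type and less RNA per cell cannot be told apart.

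Of 14 endothelial and pericyte genes, 9 were at the floor, Cdh5, Tie1, Cldn5, Sox17 and Rgs5 with no count, and the expressed ones were Erg (3.72, 5.68 and 9.27 CPM), Pecam1 (3.99, 2.57 and 3.09 CPM) and Notch3 (2.83, 2.77 and 5.45 CPM). Of 10 adipocyte genes, 6 were at the floor, Adipoq, Plin1 and Cidec with no count. Of 10 neural and Schwann genes, 6 were at the floor, and the myelin gene Mbp (7.85, 7.20 and 9.21 CPM) was among the 2 expressed. The summed levels of these lists were 11, 11.5 and 18.0 CPM for endothelium and pericytes, 9.88, 12 and 8.80 CPM for adipocytes and 9.91, 10.2 and 11.1 CPM for nerve. In each of these 3 lists more members were at the floor than were expressed, whereas 36.9% of all protein-coding genes were at the floor. Members with no count were 5 of 14, 3 of 10 and 2 of 10, near the 28.7% of all protein-coding genes.

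**Figure D2:**
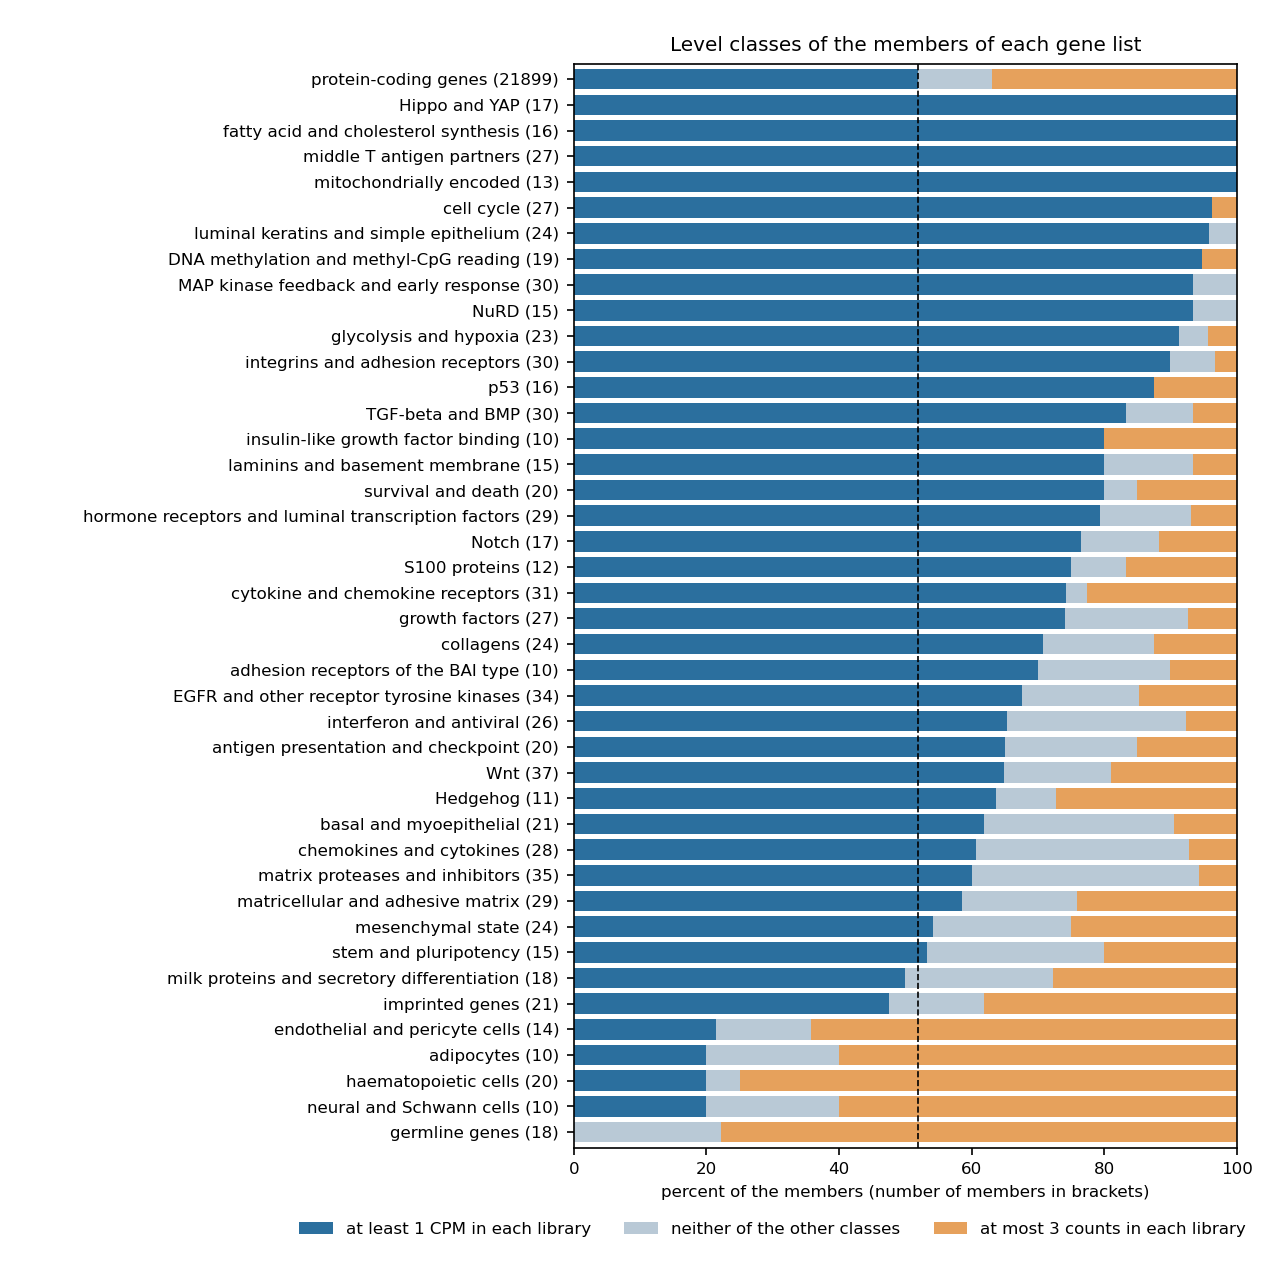
Share of the members of each gene list that were expressed (at least 1 CPM in each of the 3 control libraries, dark blue), at the floor (at most 3 counts in each library, orange) or in neither class (grey), in percent of the members. The dashed line is the 52.0% of all protein-coding genes that were expressed. All members of the Hippo, fatty acid and cholesterol synthesis, middle T partner and mitochondrially encoded lists were expressed, and no member of the germline list was.

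Most casein and whey genes were at the floor or low, although genes of the factors that drive them were expressed. Csn2, the beta-casein gene, had 0, 1 and 2 counts, Csn1s1 had 0, 1 and 0 counts, Csn1s2a had 0, 0 and 0 counts, and Wap, whey acidic protein, had 0, 1 and 0 counts. Lalba had 0.119, 0.237 and 0.147 CPM, and among the caseins of the list only Csn3 exceeded 1 CPM, with 4.31, 5.92 and 3.24 CPM. Elf5, the regulator of secretory alveolar cells, had 67.8, 55.4 and 54.5 CPM, Stat5a, which carries the prolactin signal, had 71.4, 91.1 and 87.9 CPM, and Prlr, the prolactin receptor, had 31.5, 32.4 and 45.3 CPM. A pair of secreted proteins of the gland led the list per kb. Lcn2, an iron-siderophore binding protein, had 1581, 1628 and 1117 CPM (549.8 CPM per kb), and Mfge8, a milk fat globule protein, had 789.8, 826 and 858 CPM (176 CPM per kb). Of the 18 members, 9 were expressed (50%, near the 52.0% of all protein-coding genes), 4 were low and 5 were at the floor, against 36.9%.

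The oestrogen and progesterone receptor genes Esr1 and Pgr were expressed, and Esr2 was low. Esr1, the oestrogen receptor gene, had 12.8, 12.2 and 15.2 CPM and Pgr, the progesterone receptor gene, had 13.4, 11.1 and 15.4 CPM. Their levels per kb were 0.979 CPM per kb and 1.56 CPM per kb, against 0.715 for the median protein-coding gene. Esr2, the gene of the other oestrogen receptor, had 0.327, 0.338 and 0.294 CPM. Vdr, the vitamin D receptor gene, was the highest nuclear receptor of the list per kb (57.7 CPM per kb), with 300.2, 343 and 335 CPM, and Nr3c1, the glucocorticoid receptor gene, had 131, 124 and 143 CPM. Pparg had 1.99, 1.86 and 0.265 CPM, and replicate 3 alone was under 1 CPM.

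Among the transcription factors of that list, Sox9, a regulator of mammary progenitors, stood first per kb, at 108 CPM per kb, with 481, 331 and 524 CPM. Tfap2c, Ehf, Foxc1 and Gata3 followed with 54.9 CPM per kb, 32.2 CPM per kb, 17.6 CPM per kb and 9.09 CPM per kb. Foxa1, the partner of the oestrogen receptor on chromatin, had 10.3, 12.7 and 13.5 CPM. Sox10 had 0, 1 and 0 counts, and Spdef, a factor of luminal secretory cells, had 0.208, 0.338 and 0.0883 CPM. Of the 29 members 23 were expressed (79.3%), against 52.0% of all protein-coding genes. None of the 21 with a mean of at least 5 CPM ranged 2-fold between libraries. Among all protein-coding genes at that level 5.89% did, so none of 21 is near that share.

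Receptor tyrosine kinases were led by a receptor of fibroblast growth factors. Fgfr1 had 587, 646 and 801 CPM, or 68.6 CPM per kb, and Fgfr2, Fgfr3 and Fgfr4 had 2.03 CPM per kb, 2.56 CPM per kb and 0.107 CPM per kb. Fgfr1 was above the other members of its family in every library. In the epidermal growth factor receptor family, Erbb2 had 63.2, 71.4 and 106 CPM, Egfr had 93.5, 90.8 and 105 CPM and Erbb3 had 10, 11.3 and 14.4 CPM. Per kb, Erbb2 (15.4 ± 4.34 CPM per kb) and Egfr (8.51 ± 0.650 CPM per kb) lay above Erbb3 (1.97 ± 0.374 CPM per kb), by more than the SD of 3 libraries. Erbb4 had 1, 0 and 0 counts, so the receptor of the family that is linked to lactation was at the floor.

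Other kinases of the list were Ephb4 and Epha2, receptors of ephrins, with 116, 132 and 196 CPM and 56.6, 73.8 and 142 CPM, and Ddr1 and Ddr2, receptors of collagen, with 107, 134 and 105 CPM and 69.6, 85.2 and 99.7 CPM. For Epha2 replicate 3 was the highest, at 2.17 times the mean of the others. Met, the receptor of hepatocyte growth factor, had 115, 122 and 154 CPM, while Hgf, its ligand, had 2, 0 and 1 counts. Igf1r had 50.9, 62.6 and 80.2 CPM and Insr had 13.1, 13.7 and 22.9 CPM. Ntrk2, a receptor of brain-derived neurotrophic factor, had 18.6, 17.1 and 31.9 CPM. Of 34 members 23 were expressed (67.6%), 6 were low and 5 were at the floor. All protein-coding genes had 52.0% expressed and 36.9% at the floor.

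Ligands were not spread in the same way as their receptors. Pdgfb had 629.9, 822 and 243 CPM and Pdgfa had 128, 137 and 101 CPM, so ligands and receptors of platelet-derived growth factor were expressed together. Csf1, which sustains macrophages, had 534, 764 and 149 CPM, and Csf3, which mobilises neutrophils, had 59.8, 163 and 17.7 CPM. Replicate 3 was the lowest library for Pdgfb, Csf1 and Csf3, and the mean without it was 726, 649 and 112 CPM. Among ligands of Egfr, Tgfa had 28.0, 27.8 and 44.3 CPM, Hbegf had 17.3, 20.6 and 23.4 CPM and Areg, the amphiregulin gene needed for ductal growth, had 3.06, 3.31 and 8.42 CPM. Egf had 1.46, 1.12 and 1.38 CPM and Ereg had 0.387, 0.135 and 0 CPM.

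Growth factors at or near 0 were Hgf, and Igf2 with 11, 0 and 2 counts. Igf1 had 2.56, 2.67 and 2.41 CPM, Fgf2 had 3.06, 2.81 and 2.97 CPM and Fgf7 had 0.625, 0.507 and 0.53 CPM. Fgfr1 was thus expressed at 68.6 CPM per kb while none of the fibroblast growth factors of the list (Fgf1, Fgf2 and Fgf7) exceeded 1.07 CPM per kb. Vegfa, the main angiogenic factor, had 43.6, 53.3 and 87.9 CPM. Of 27 growth factor genes 20 were expressed, against 52.0% of all protein-coding genes. Of the 15 with a mean of at least 5 CPM, replicate 3 was at most 0.5 times the lower of the others for 5. The share of all protein-coding genes at that level was 1.76%.

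**Figure D3:**
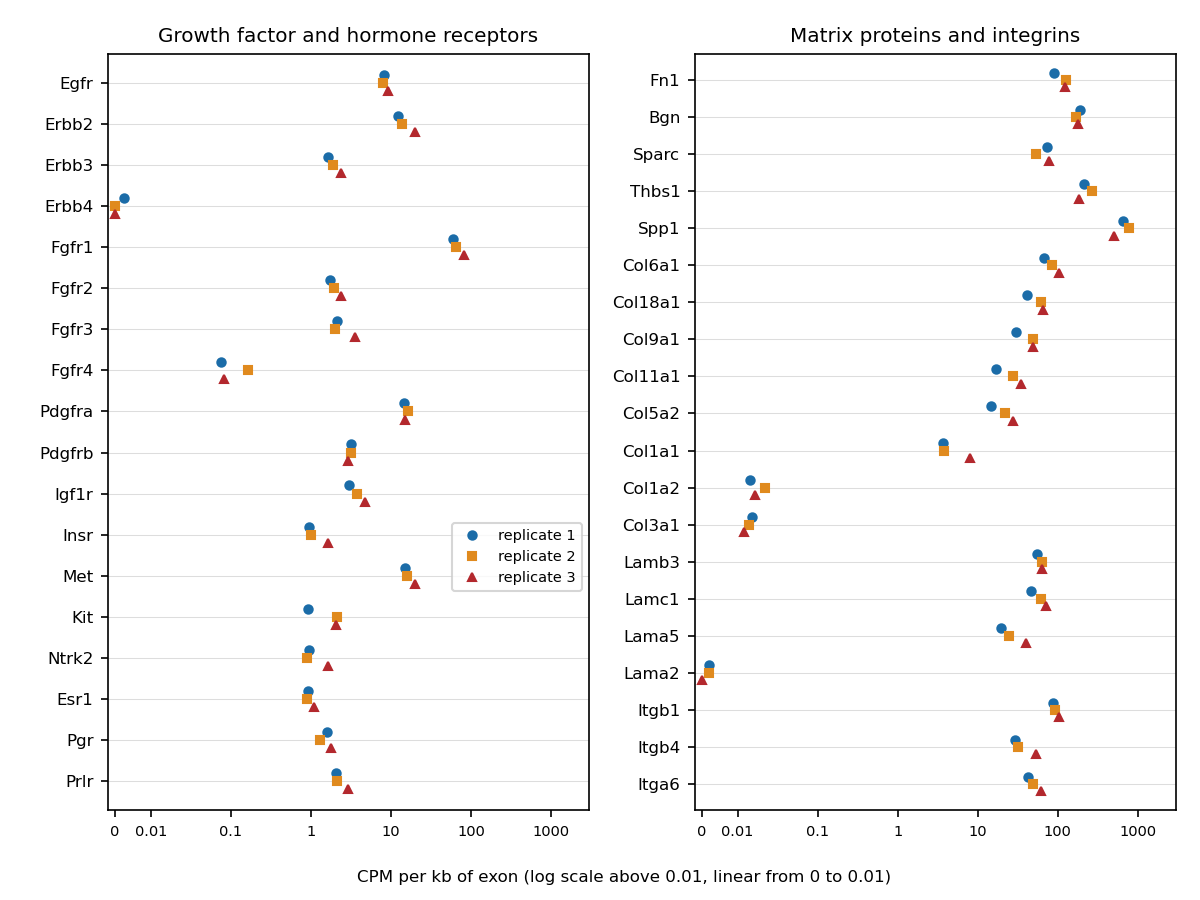
Levels of growth factor and hormone receptors (left) and of matrix proteins and integrins (right) in the 3 control libraries, as CPM per kb of exon on an axis that is logarithmic above 0.01 and linear from 0 to 0.01. Each point is 1 library. Fgfr1 lies above the other receptors shown, and Col1a1 lies more than 100 times above Col1a2.

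Binding proteins of insulin-like growth factors were expressed at high levels. Beside Igfbp5, Igfbp2 had 984, 1239 and 979 CPM, Igfbp4 had 462, 647 and 554 CPM, Igfbp7 had 148, 174 and 165 CPM and Igfbp3 had 139.8, 65.0 and 117 CPM. Per kb the order was Igfbp5 (1516 ± 458 CPM per kb), Igfbp2 (578 ± 80.6 CPM per kb), then Igfbp7 (134 ± 11.1 CPM per kb) and Igfbp4 (126 ± 20.9 CPM per kb), whose spreads overlapped, and Igfbp3 (34.2 ± 12.2 CPM per kb). Igfbp1 had 0, 1 and 0 counts and Igfbp6 had 3, 0 and 0 counts. Igf2r, which clears the ligand Igf2 from the surface, had 141, 205 and 245 CPM, and Pappa, a protease that cuts Igfbp4 and Igfbp5, had 5.50, 6.70 and 5.27 CPM. The binding proteins thus stood far above the ligand genes Igf1 (0.257 CPM per kb) and Igf2 (0.0225 CPM per kb).

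In the TGF-beta and BMP pathway 25 of 30 genes were expressed (83.3%, against 52.0% of all protein-coding genes), ligands, receptors and Smads among them. Of the ligands, Tgfb3 had 240.0, 239.7 and 269 CPM, Tgfb2 had 45.8, 48.0 and 39.9 CPM and Tgfb1 had 15.1, 16.9 and 18.2 CPM, in this order also per kb (73.8 CPM per kb, 7.69 CPM per kb and 3.32 CPM per kb). Bmp2 had no count, Bmp4 had 2.23, 2.67 and 0.883 CPM, and Inhbb, a subunit of activin B, had 139, 133 and 348 CPM. The receptor genes Tgfbr2 and Tgfbr1 had 114, 122 and 149 CPM and 31.0, 33.1 and 36.8 CPM, Bmpr1a had 125, 129.5 and 152 CPM, and Bmpr1b had no count. Smad4, the shared partner of the pathway's transcription factors, had 114, 111 and 107 CPM, with libraries within 1.06-fold. The target Id1 had 50, 51.7 and 67.8 CPM, and Id2 was spread, with 77.3, 38.7 and 158 CPM.

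In the Wnt pathway the receptors were expressed and most ligands of the list were not. Wnt3, Wnt3a, Wnt6 and Wnt7a had no count, Wnt10a had 0, 1 and 0 counts, Wnt1 had 2, 4 and 0 counts and Wnt4, the ligand that acts downstream of progesterone, had 4, 8 and 1 counts. The ligands of the list above 1 CPM in each library were Wnt7b (141, 199.5 and 106 CPM) and Wnt5b (70.4, 76.3 and 66.0 CPM). The receptor Fzd7 had 168, 163 and 236 CPM and the co-receptors Lrp5 and Lrp6 had 223, 277 and 352 CPM and 112, 135 and 191 CPM. Ctnnb1, the beta-catenin gene, had 621, 649 and 631 CPM. Its feedback targets had 0.833, 1.59 and 1.88 CPM for Axin2, 2.08, 2.64 and 3.53 CPM for Lgr5 and 1.22, 1.86 and 1.77 CPM for Lef1. Sfrp1, a secreted inhibitor, had 200, 249 and 288 CPM, while the inhibitor gene Dkk1 had no count.

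Notch receptors 1 and 2 had 165, 154 and 269 CPM and 95.8, 129.6 and 144 CPM, and Notch3 and Notch4 were lower per kb, at 0.455 CPM per kb and 0.0608 CPM per kb against 13.8 CPM per kb and 11.4 CPM per kb. Dll1, a ligand, had 35.9, 36.6 and 64.6 CPM, Jag1 had 15.4, 8.05 and 7.89 CPM, and Dll3 had no count. The target genes varied more than the receptors. Hes1 had 203, 83.4 and 275 CPM, Hey1 had 85.0, 51.3 and 96.6 CPM and Nrarp had 19.1, 7.74 and 16.5 CPM, with replicate 2 the lowest for each of the 3. In the Hedgehog pathway the ligand genes Shh and Dhh had no count and Ihh had 2, 2 and 7 counts, while the receptor Ptch1 had 61.3, 68.3 and 60.7 CPM, Smo, the transducer, had 185, 202 and 234 CPM, and Gli1, the target, had 3.93, 4.19 and 5.98 CPM.

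All 17 genes of the Hippo and YAP list were expressed, against 52.0% of all protein-coding genes. Yap1 had 186, 195 and 229 CPM and Wwtr1, which encodes TAZ, had 228, 211 and 230.1 CPM, and both are co-activators that the Hippo kinases keep out of the nucleus. Their target genes Ccn1 and Ccn2 were the highest of the list per kb, at 449 CPM per kb and 201 CPM per kb, with 926, 810.3 and 986 CPM and 711, 586 and 431 CPM. The targets Amotl2 and Ankrd1 were lower in replicate 3, with 417, 429 and 144 CPM and 20.6, 19.1 and 4.36 CPM. Tead1, the most abundant Tead per CPM, had 133, 156 and 201 CPM, but per kb Tead2 (12.2 ± 0.509 CPM per kb) and Tead1 (12.1 ± 2.54 CPM per kb) did not differ beyond their SD.

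All 27 genes of the proteins that middle T antigen binds or signals through were expressed, against 52.0% of all protein-coding genes. None of the 25 with a mean of at least 5 CPM ranged 2-fold between libraries. Among all protein-coding genes at that level 5.89% did, so none of 25 is near that share. The scaffold subunit of protein phosphatase 2A, Ppp2r1a, had 317, 320.4 and 282 CPM, and its catalytic subunit Ppp2ca had 435, 426 and 416 CPM. Of the kinases of the Src family, Src had 61.7, 84.4 and 92.7 CPM, Yes1 had 64.9, 63.3 and 69.6 CPM, Fyn had 14.6, 16 and 17.0 CPM and Lyn had 22.4, 23.2 and 21.3 CPM, with 18.2 CPM per kb, 8.78 CPM per kb, 3.63 CPM per kb and 5.47 CPM per kb, so per kb Src was the highest of them in every library and Lck (5.59, 5.17 and 2.53 CPM) the lowest. The adaptors Shc1, Grb2 and Gab1 had 155, 185 and 199 CPM, 131, 157 and 168 CPM and 188, 161 and 113 CPM. Of the phosphatidylinositol 3-kinase subunits, Pik3r1 had 193, 132 and 213 CPM, Pik3r2 had 126, 141 and 167 CPM and Pik3ca had 70.7, 67.7 and 83.4 CPM, while Pik3cd, the form of white blood cells, had 1.52, 1.56 and 1.53 CPM. Akt1 (61.8 CPM per kb) stood above Akt2 (18.1 CPM per kb).

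The MAP kinase pathway was expressed from kinases to target genes, with 28 of 30 members expressed, against 52.0% of all protein-coding genes. Map2k1 had 72.9, 77.5 and 87.4 CPM, within 1.2-fold between libraries. The Ets factors Etv4 and Etv5, which follow this pathway, had 70.0, 84.2 and 91.6 CPM and 204, 199 and 248 CPM. Early response genes were less even. Egr1 had 185, 222 and 558 CPM, Fos had 29.8, 30.1 and 116 CPM, Myc had 118, 67.4 and 272 CPM and Spry4, a feedback inhibitor, had 3.60, 4.84 and 18.8 CPM. For these 4 genes replicate 3 was above both others, at 2.74, 3.88, 2.93 and 4.47 times their mean. Without replicate 3 the means were 204 CPM for Egr1, 30.0 for Fos and 92.9 for Myc. In the list, replicate 3 was at least 2-fold the higher of the others for 6 of 28 genes with a mean of at least 5 CPM, against 0.636% of all protein-coding genes. Dusp5, a phosphatase that acts on ERK in the nucleus, went the other way, with 159, 111 and 45.2 CPM.

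Of the collagen genes given in this paragraph, Col6a1, Col18a1, Col9a1, Col11a1 and Col5a2 took more reads than Col1a1, Col1a2, Col2a1 and Col3a1. Col6a1 had 296, 375 and 459 CPM, Col18a1, whose end fragment is endostatin, had 287, 429 and 459.7 CPM, Col9a1 and Col11a1, known from cartilage, had 153, 248 and 252 CPM and 217, 349 and 440.3 CPM, and Col5a2 had 142, 213 and 264 CPM. Fibrillar collagen I was unbalanced. Col1a1 had 24.3, 24.9 and 52.3 CPM while Col1a2, which provides the third chain of the same triple helix, had 6, 8 and 7 counts, and per kb they stood at 5.15 ± 2.44 CPM per kb and 0.0176 ± 0.00380 CPM per kb (SD, n = 3). The libraries of these genes did not overlap. Col2a1, the collagen of cartilage, had 5.65, 11.3 and 15.7 CPM, and Col3a1, the other main collagen of fibroblasts, had 5, 4 and 4 counts.

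The 24 collagen genes included 17 expressed, 4 low and 3 at the floor. All protein-coding genes had 52.0% expressed and 36.9% at the floor. The collagen genes varied between libraries more than most lists, with 10 of 16 genes ranging at least 2-fold against 5.89% of all protein-coding genes. Replicate 1 was at most 0.5 times the lower of the others for 4 of the 16 (0.28% of all protein-coding genes). Replicate 3 was at least 2-fold the higher for 3 (0.636% of all protein-coding genes). Col16a1, for instance, had 51.2, 131 and 159 CPM, and Col17a1, a hemidesmosome collagen, had 3.60, 1.12 and 14.3 CPM. The summed level of the list was 1363, 2031 and 2404 CPM.

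Laminin genes of epithelial basement membranes were expressed, in sets of alpha, beta and gamma chains that are known to form trimers together. In the set that anchors hemidesmosomes, Lamb3 had 359, 421 and 421 CPM and Lama3 had 21, 23.2 and 43.4 CPM, and per kb Lama3 (2.72 CPM per kb) was below Lamb3 (60.5 CPM per kb). In another set, Lama5 had 224, 281 and 462 CPM, Lamb1 had 166, 236 and 230.4 CPM and Lamc1 had 383, 517 and 590.3 CPM. Lama2, the chain of muscle and nerve, had 1, 1 and 0 counts, and Lama1 had 2, 8 and 2 counts. Agrn and Hspg2, heparan sulphate proteoglycans of basement membranes, had 315, 454 and 677 CPM and 91.8, 121 and 173 CPM.

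Among matricellular genes, Spp1 (osteopontin) had 1061, 1276 and 829.7 CPM, Thbs1 had 1305, 1629.9 and 1127 CPM, Bgn (biglycan) had 1154, 1021 and 1094 CPM and Tnc (tenascin C) had 91.7, 137 and 139.9 CPM. Per kb the order was Spp1 (641 ± 135 CPM per kb), Thbs1 (223 ± 42.0 CPM per kb), Bgn (179 ± 10.9 CPM per kb) and Fn1 (114 ± 20.9 CPM per kb), and Thbs1 and Bgn did not differ beyond their SD. Ccn4 was the steadiest, with 61.2, 61.2 and 62.7 CPM. Lox, which cross-links collagen, had 0.506, 0.507 and 0.235 CPM, and Thbs2, Efemp1 and Mfap5, matrix genes of fibroblasts, had 0, 0 and 1 counts, 0, 0 and 1 counts and 0, 0 and 2 counts. Of the 29 members, 17 were expressed (58.6%, against 52.0% of all protein-coding genes) and 7 were at the floor, against 36.9%.

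Secreted metalloproteinases had few counts. Mmp9 had 10, 0 and 0 counts, Mmp7 had 4, 2 and 1 counts, Mmp12 had 4, 0 and 0 counts, Mmp3 had 1.25, 2.37 and 0.294 CPM and Mmp2 had 4.02, 7.95 and 5.83 CPM. The membrane-bound Mmp14 was the highest of the family per kb (15.7 CPM per kb), with 73.7, 90.8 and 117 CPM. The inhibitors Timp2 and Timp3 were higher per kb (144 CPM per kb and 99.4 CPM per kb), with 506, 581 and 599.9 CPM and 799.5, 799.8 and 828 CPM, whereas Timp1 had 0.535, 0.338 and 0.294 CPM. Ctsd, a lysosomal protease, led the list per kb (589 CPM per kb), with 1390.3, 1312 and 1452 CPM. The activator gene Plau (urokinase) had 43.9, 44.4 and 37.6 CPM, its receptor Plaur had 22.2, 28.8 and 6.65 CPM, with replicate 3 the lowest, and its inhibitor Serpine2 had 520.5, 482 and 449.9 CPM.

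Of 30 integrin and adhesion receptor genes 27 were expressed (90.0%), against 52.0% of all protein-coding genes. Itgb1 had 358, 376 and 425 CPM, Itga6 (50.9 CPM per kb) and Itga3 (35.5 CPM per kb), the alpha chains that bind laminin, were above Itga5 (8.64 CPM per kb), which binds fibronectin, and Itga2 (0.894 CPM per kb), which binds collagen. Itga8 had 124, 142 and 133 CPM and Cd44, the hyaluronan receptor, had 156, 168 and 164 CPM. Itga4, of white blood cells, had 2, 1 and 0 counts. Itgb6, the chain with which epithelia activate TGF-beta, was spread, with 32.8, 45.3 and 6.89 CPM, and its mean without replicate 3 was 39.0 CPM. Itgb8 had 92.8, 114 and 44.3 CPM and Itga2 had 5.59, 11.7 and 1.80 CPM, again with replicate 3 the lowest.

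Chemokine and cytokine genes held 3 of the 10 places among protein-coding genes with the largest range between the control libraries. Cxcl1, which attracts neutrophils, had 1443, 1394 and 215 CPM, Cxcl2 had 82.6, 75.9 and 1.3 CPM and Cxcl5 had 81.9, 233 and 3.59 CPM. Ccl2, which attracts monocytes, had 306, 251 and 14.6 CPM, Ccl7 had 28.4, 32.3 and 2.68 CPM and Ccl20, the ligand of Ccr6, had 319.7, 287 and 5.09 CPM. Tnf had 36.4, 25.7 and 3.06 CPM and Cxcl10, an interferon-induced chemokine, had 8.98, 8.73 and 0.412 CPM. In each of these 8 genes replicate 3 lay below both other libraries. The mean of replicates 1 and 2 was 6.59 times replicate 3 for Cxcl1, 19 for Ccl2, 59.6 for Ccl20 and 61.2 for Cxcl2, whereas replicates 1 and 2 of these 4 genes lay close to each other. Without replicate 3 the mean was 1418 CPM for Cxcl1, 278 for Ccl2 and 303 for Ccl20.

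Over the members of any list with a mean of at least 5 CPM, 95 of 548 (17.3%) ranged at least 2-fold. Replicate 3 was at most 0.5 times the lower of the others in 34 of these 548. Of the 16 chemokine and cytokine genes at that level, 12 ranged at least 2-fold, against 5.89% of all protein-coding genes. In 11 of the 16 replicate 3 was at most 0.5 times the lower of the others, against 183 of 10372 protein-coding genes (1.76%). The exceptions included Lif, a cytokine that sustains stem cells, with 203, 269.9 and 319.7 CPM, Cxcl12, the ligand of Cxcr4, with 29.0, 30.9 and 45.3 CPM, and Mif with 256, 219.6 and 199 CPM. The summed level of the list was 3902, 3781 and 1330 CPM. Per kb, with all libraries, Cxcl1 was first (543 ± 371 CPM per kb), and its SD was wider than its distance to Mif (302 ± 39.3 CPM per kb), the next gene. Il6 had 1.04, 0.338 and 0.589 CPM, Il1a had 0.476, 0.710 and 0 CPM, Il33 had 1.16, 0.507 and 1.41 CPM, and Il1b and Cxcl14 had no count. In all 3 libraries chemokine messages such as Cxcl1 were thus present, and messages of the interleukin genes Il1a, Il1b and Il6 were at or near 0.

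**Figure D4:**
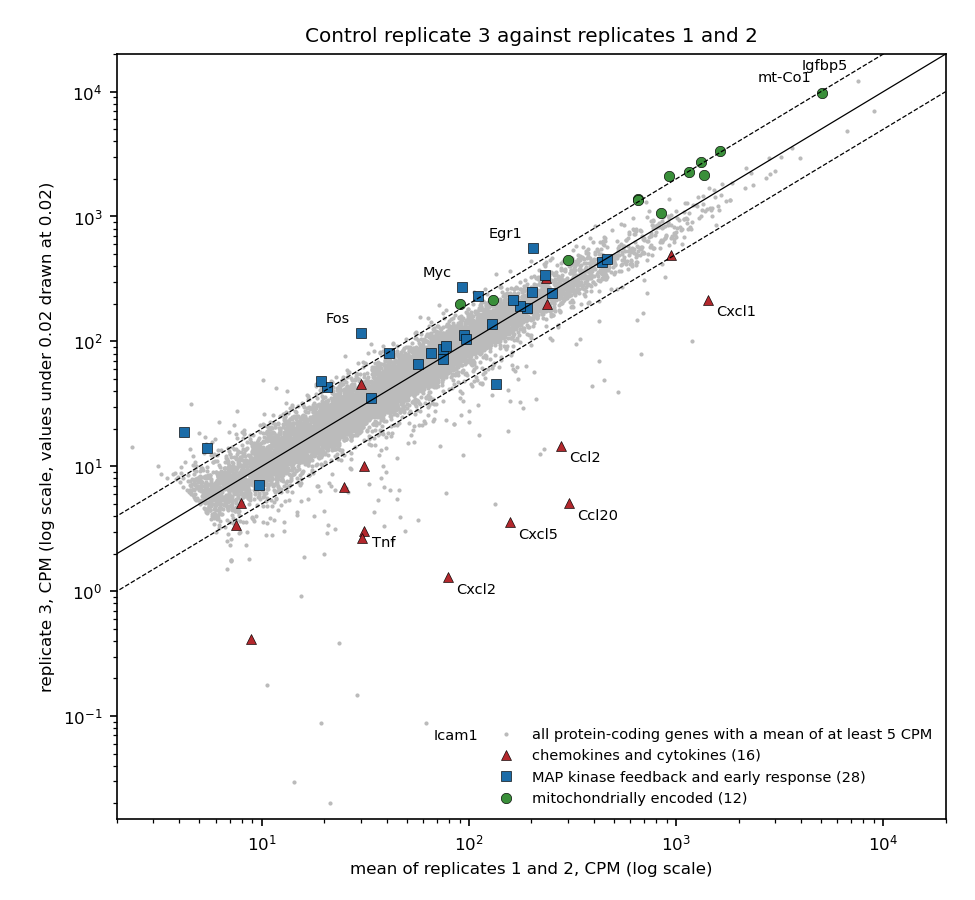
Level of each protein-coding gene with a mean of at least 5 CPM in control replicate 3 against the mean of replicates 1 and 2, both in CPM on log axes. The solid line marks equal levels and the dashed lines a 2-fold difference, and the chemokine and cytokine list (red), the MAP kinase feedback and early response list (blue) and the mitochondrially encoded genes (green) are drawn over all genes (grey). Ccl20, Cxcl2, Cxcl5, Ccl2 and Cxcl1 lie far below the lines, and Fos, Myc and Egr1 lie above them.

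Other genes with the largest range were of the same direction. All 10 protein-coding genes with the largest ratio of highest to lowest library had their lowest value in replicate 3. Icam1, an adhesion molecule for white blood cells, had 66.1, 57.4 and 0.0883 CPM (2222, 1698 and 3 counts), and Vcam1, another such molecule, had 33.4, 23.9 and 0.147 CPM. Saa3, an acute phase protein, had 20.3, 18.3 and 0.0883 CPM, Cfb, complement factor B, had 8.21, 13.1 and 0.177 CPM, and Cd69 had 18.7, 9.81 and 0.0294 CPM. Slc10a6, a transporter of steroid sulphates, had 25.3, 21.6 and 0.383 CPM, and the gene model Gm10273 had 21.4, 21.4 and 0 CPM. Near-identical copies were searched only for list members and the genes with the most counts. Gm10273 is not among them, so its counts are uncertain. Irf1, a transcription factor that responds to interferon, had 1325, 1071 and 101 CPM, Tlr2, a receptor of bacterial lipopeptides, had 372, 409.7 and 43.9 CPM, and Fas, a death receptor, had 40.8, 41.9 and 6.48 CPM. In each of these genes replicates 1 and 2 lay nearer to each other, on a log scale, than either lay to replicate 3.

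The promoters of genes that were low in replicate 3 were searched for the NF-kappaB consensus, since chemokine genes are known targets of that factor. Windows of 250 bases before the start in RefSeq (GRCm38.p6) were at hand for 142 of the 183 genes, and 25 (17.6%) held the consensus on either strand. It was found in 362 of 8298 windows (4.36%) of all protein-coding genes at that level and in 3 of 52 (5.77%) windows of genes that were high in replicate 3. In the chemokine and cytokine list 7 of 20 windows held it, and in the antigen presentation and checkpoint list 5 of 14. Replicate 3 was low for 11 of 16 genes of the former at that level and for 1 of 13 of the latter. Lists with no gene low in replicate 3 held it in 2 of 11 windows (basal) and 0 of 23 (Wnt). The windows also differed in other letters, since TATAAA was in 16 of the 142 windows and in 469 of the 8298. A match is a description of the letters and not evidence of binding, and the genes were picked by replicate 3 itself. Whether the factor had a part in the difference of replicate 3 was not tested. The windows of 4 genes with a match are printed 5′ to 3′ as examples chosen after their values were seen, with the matched bases in capitals.

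Ccl20 (chr1:83116516-83116765, plus strand): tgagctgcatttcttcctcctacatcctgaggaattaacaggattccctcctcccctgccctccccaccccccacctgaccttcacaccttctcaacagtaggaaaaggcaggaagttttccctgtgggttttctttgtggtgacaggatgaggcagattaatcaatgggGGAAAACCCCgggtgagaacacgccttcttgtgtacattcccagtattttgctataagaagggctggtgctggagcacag
Cxcl1 (chr5:90890995-90891244, plus strand): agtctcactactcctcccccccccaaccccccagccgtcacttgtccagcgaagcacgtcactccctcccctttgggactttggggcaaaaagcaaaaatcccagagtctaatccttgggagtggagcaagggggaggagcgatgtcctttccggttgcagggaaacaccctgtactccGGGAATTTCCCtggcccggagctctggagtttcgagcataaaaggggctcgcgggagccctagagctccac
Cxcl2 (chr5:90903649-90903898, plus strand): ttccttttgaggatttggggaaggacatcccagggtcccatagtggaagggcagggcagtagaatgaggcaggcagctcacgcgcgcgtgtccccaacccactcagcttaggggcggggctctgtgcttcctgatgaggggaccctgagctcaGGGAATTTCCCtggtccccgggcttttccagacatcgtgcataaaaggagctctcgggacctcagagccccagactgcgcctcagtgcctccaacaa
Irf1 (chr11:53769764-53770013, plus strand): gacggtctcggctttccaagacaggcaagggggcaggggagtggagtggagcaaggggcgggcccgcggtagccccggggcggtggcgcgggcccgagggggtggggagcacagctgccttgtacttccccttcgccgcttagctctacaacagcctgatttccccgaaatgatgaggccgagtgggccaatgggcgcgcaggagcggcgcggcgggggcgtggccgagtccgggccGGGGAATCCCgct

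In Cxcl1 and Cxcl2 the matches of both strands overlap, and the 11 shared capitals are the same letters in both genes. They begin 71 and 97 bases before the start and end 61 and 87 bases before it. The match of Ccl20 lies on the opposite strand, 80 to 71 bases before the start, and that of Irf1 lies 13 to 4 bases before it. The windows of Icam1, Saa3 and Slc10a6, which were also low in replicate 3, did not hold these letters within 250 bases, which says nothing of the factor elsewhere. The motif was chosen for the search after the levels had been seen.

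Of the 22 cytokine and chemokine receptor genes with a mean of at least 5 CPM, 6 (27.3%) ranged at least 2-fold, against 5.89% of all protein-coding genes at that level and 12 of 16 in the chemokine and cytokine list. Il6st, the shared receptor chain of the interleukin 6 family, had 205, 240.1 and 174 CPM, Osmr had 148, 129 and 164 CPM, Lifr had 112, 85.7 and 129 CPM and Tnfrsf1a had 87.7, 83.6 and 95.8 CPM. Il13ra1 had 125, 121 and 118 CPM, with libraries within 1.06-fold. Replicate 3 was at most 0.5 times the lower of the others for 4 of 22 genes, against 1.76% of all protein-coding genes, and these were Tlr2, Fas and the interferon-gamma receptor chains Ifngr1 (111, 121 and 46.4 CPM) and Ifngr2 (112, 118 and 45.9 CPM). The chemokine receptor Cxcr4 had 7.26, 4.19 and 15.7 CPM, whereas Ccr1, Ccr2, Ccr7 and Cxcr2 were at the floor and Cxcr3 had no count. The cells thus expressed ligands of Cxcr2 with 1, 0 and 0 counts of Cxcr2 itself.

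Interferon-stimulated genes were at unequal levels. Mx1 had 0.744, 0.304 and 0.206 CPM, Oas1a had 0.625, 0.812 and 0.589 CPM and Usp18 had 0.268, 0.203 and 0.118 CPM, and Ifnb1 had no count. Ifit1 had 1.55, 2.77 and 1.15 CPM and Irf7 had 1.40, 2.13 and 2.94 CPM, whereas Ifit2 had 39.2, 42.8 and 32.1 CPM, Isg15 had 10, 14.2 and 8.68 CPM, Bst2 had 9.34, 14 and 7.95 CPM, Irf9 had 6.72, 6.53 and 8.06 CPM and Irf1, given above, was far higher in replicates 1 and 2. The summed level of the list was 1762, 1507 and 518 CPM, most of it Irf1 in replicates 1 and 2. Sensors of foreign nucleic acids were expressed, with 119.5, 112 and 116 CPM for Ddx58 (RIG-I), 14.6, 13 and 12.6 CPM for Ifih1 (MDA5), 17.7, 16.9 and 17.0 CPM for Cgas and 77.9, 67.6 and 71.3 CPM for Tmem173 (STING). None of these sensors ranged 2-fold. Of the 26 genes 17 were expressed, against 52.0% of all protein-coding genes. Of the 15 with a mean of at least 5 CPM, Irf1 alone had replicate 3 at most 0.5 times the lower of the others. The share of all protein-coding genes at that level was 1.76%.

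Of the antigen presentation genes, those of class I were expressed and those of class II were not. H2-K1 had 349, 395 and 284 CPM, H2-D1 had 209, 246 and 189.7 CPM, B2m, the shared light chain, had 200.4, 166 and 121 CPM and Tap1, the peptide transporter, had 15.6, 17.6 and 15.7 CPM. H2-Aa, H2-Ab1 and H2-Eb1 had no count in any library, although Ciita, the activator of class II genes, had 10.4, 11.9 and 4.77 CPM. Class I genes differ in sequence between mouse strains, and the strain of the line is not given. Cd274, which encodes PD-L1, had 1.84, 3.92 and 0.5 CPM, Cd276 (B7-H3) had 75, 82.7 and 101 CPM, and Cd47, the signal that inhibits phagocytosis, had 67.7, 74.0 and 55.9 CPM.

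Genes of proliferation were expressed in all libraries, 26 of 27 in the cell cycle list, against 52.0% of all protein-coding genes. Mki67 had 401, 505 and 669 CPM, Top2a had 613, 645 and 725 CPM, Ccna2 had 361, 332 and 320.0 CPM and Ccnd1, the cyclin of early G1, had 524, 530.0 and 576 CPM. Ccnd1 was the highest D-type cyclin per kb, at 115 CPM per kb against 14.7 CPM per kb for Ccnd2 and 9.26 CPM per kb for Ccnd3. Of the inhibitors, Cdkn1b (p27) had 208, 171 and 170.4 CPM, Cdkn2a, which encodes a cell cycle inhibitor and an activator of p53, had 30.5, 50.2 and 42.1 CPM, Cdkn1a (p21) had 46.8, 56.6 and 27.7 CPM, and Cdkn1c (p57) had 1, 1 and 0 counts. Rb1 had 46.2, 45.4 and 49.3 CPM. Messages of cyclins and of several cell cycle inhibitors were thus measured side by side.

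The p53 gene Trp53 had 284, 255 and 224 CPM, and most of its usual target genes were expressed. Mdm2 had 74.4, 68.7 and 61.1 CPM, Ccng1 had 179.9, 185 and 171 CPM, Bax had 63.1, 76.1 and 68.9 CPM, Perp had 137, 101 and 128 CPM and Bbc3 (PUMA) had 14.8, 33.6 and 11.2 CPM. Pmaip1, which encodes the death protein NOXA, had 0, 0 and 1 counts, and Trp73, a relative of p53, had no count. Of 16 genes 14 were expressed and these 2 were at the floor, against 52.0% and 36.9% of all protein-coding genes. Sequence changes of p53 were not analysed here.

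Among survival genes, Mcl1 had 219, 204 and 186 CPM, Bcl2l1 had 110.0, 118 and 106 CPM, Bcl2 had 54.4, 55.8 and 54.0 CPM and Birc5, a gene of dividing cells, had 368, 335 and 285 CPM. Per kb, Mcl1 (59.4 CPM per kb) and Bcl2l1 (24.3 CPM per kb) lay above Bcl2 (5.98 CPM per kb). The effectors Bax and Bak1 had 63.1, 76.1 and 68.9 CPM and 113, 120.1 and 129 CPM, and the sensor Bcl2l11 (BIM) had 82.9, 74.6 and 90.9 CPM. Hrk had 3, 0 and 0 counts and Bik had 7, 5 and 0 counts. Of 20 genes 16 were expressed and 3 were at the floor, against 52.0% and 36.9% of all protein-coding genes.

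Readers, writers and erasers of DNA methylation were expressed, with 18 of 19 genes expressed, against 52.0% of all protein-coding genes. Mbd2 had 74.1, 77.1 and 77.7 CPM, a mean of 76.3 ± 1.94 (SD, n = 3) CPM, and its highest library was 1.05 times the lowest. Mbd3, its relative in the same complex, had 76.5, 114 and 105 CPM, Mbd1 had 102, 105 and 65.0 CPM and Zbtb33 (Kaiso) had 78.1, 73.9 and 79.9 CPM. Per kb, Mbd3 (49.7 ± 9.90 CPM per kb) was above Mbd2 (23.7 ± 0.604 CPM per kb), by more than their SD. Of the methyltransferases, Dnmt1, which copies methylation after replication, had 285, 379.9 and 421 CPM, its partner Uhrf1 had 219.8, 229.7 and 213 CPM, and Dnmt3a and Dnmt3b, which set new marks, had 32.2, 43.3 and 61.3 CPM and 8.18, 10.7 and 11.9 CPM. Dnmt3l, their cofactor in germ cells, had 2, 0 and 0 counts. The demethylases Tet3, Tet2 and Tet1 followed in this order per kb, at 5.60 CPM per kb, 1.26 CPM per kb and 0.396 CPM per kb.

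The NuRD complex, which joins a remodeller to deacetylases, was expressed in nearly all its subunits. The remodeller Chd4 had 376, 514 and 638 CPM, Chd3 had 59.3, 113 and 125 CPM, and Chd5, the form of neurons and testis, had 0.327, 0.643 and 1.21 CPM. The deacetylases Hdac1 and Hdac2 had 102, 103 and 100.5 CPM and 149.7, 139.7 and 139.9 CPM, Mta1, Mta2 and Mta3 had 33.8 CPM per kb, 47.8 CPM per kb and 11.9 CPM per kb, and Gatad2a and Gatad2b, which link Mbd2 to the remodeller, had 171, 173 and 206 CPM and 133, 136 and 159 CPM. The brain angiogenesis inhibitor genes, adhesion receptors of which Adgrb1 is a known target of MBD2 in brain tumour cells, had levels from no count to a few CPM. Adgrb1 had 0.833, 0.271 and 1.32 CPM, Adgrb2 had 2.08, 2.74 and 3.65 CPM and Adgrb3 had no count, while the adhesion receptor gene Adgrl2 had 148, 192 and 226 CPM.

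Germline genes are a class that DNA methylation keeps silent in most somatic cells. None of the 18 was expressed, 14 were at the floor and 11 had no count, against 52.0%, 36.9% and 28.7% of all protein-coding genes. Dazl, Ddx4, Mael, Asz1, Hormad1, Stra8 and Tex101 had no count. The highest of the 18 were Sycp1, with 0.982, 0.676 and 0.795 CPM, and Rhox5, with 0.535, 1.05 and 0.265 CPM. Their summed level was 2.05, 2.03 and 1.3 CPM. CpG content was then measured in the 250 bases before the start, as the number of CpG pairs over the number given by the C and G content. At 0.6 or more, 10 of the 16 germline windows at hand (62.5%) were CpG-rich, with a median of 0.655. Among protein-coding genes the share was 11.2% of 4613 windows with no count and 23.9% of 2750 windows under 1 CPM. By this measure the germline windows lay nearer to those of expressed genes than to those of either class, as a description with no test. The list was chosen as genes that DNA methylation keeps silent, so its CpG content is not independent of that choice. DNA methylation itself was not measured in these libraries.

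Windows of 3 germline genes with no count and of the expressed markers Krt18 and Epcam are printed 5′ to 3′, each CpG in capitals. They are examples from the ends of the range, CpG-rich windows of silent genes beside CpG-poor windows of expressed ones. All 3 germline windows lie above the median of their list (0.655), and both marker windows lie below the median of genes over 100 CPM (0.815).

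Dazl (chr17:50293621-50293870, minus strand): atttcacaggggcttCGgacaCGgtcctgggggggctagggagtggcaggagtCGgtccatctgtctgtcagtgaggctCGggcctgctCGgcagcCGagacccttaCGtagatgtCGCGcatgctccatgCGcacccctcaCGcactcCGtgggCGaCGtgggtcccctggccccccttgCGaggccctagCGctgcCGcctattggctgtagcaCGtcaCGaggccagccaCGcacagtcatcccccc
Mael (chr1:166238745-166238994, minus strand): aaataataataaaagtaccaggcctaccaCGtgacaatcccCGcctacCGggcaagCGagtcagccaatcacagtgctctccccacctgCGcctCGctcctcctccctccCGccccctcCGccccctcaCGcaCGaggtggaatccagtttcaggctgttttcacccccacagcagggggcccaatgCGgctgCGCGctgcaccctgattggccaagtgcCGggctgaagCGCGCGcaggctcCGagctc
Asz1 (chr6:18109062-18109311, minus strand): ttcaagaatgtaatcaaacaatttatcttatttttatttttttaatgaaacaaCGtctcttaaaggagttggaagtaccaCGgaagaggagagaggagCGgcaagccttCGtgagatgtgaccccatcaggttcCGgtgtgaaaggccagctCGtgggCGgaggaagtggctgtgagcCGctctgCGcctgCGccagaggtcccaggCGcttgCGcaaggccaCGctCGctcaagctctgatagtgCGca
Krt18 (chr15:102027966-102028215, plus strand): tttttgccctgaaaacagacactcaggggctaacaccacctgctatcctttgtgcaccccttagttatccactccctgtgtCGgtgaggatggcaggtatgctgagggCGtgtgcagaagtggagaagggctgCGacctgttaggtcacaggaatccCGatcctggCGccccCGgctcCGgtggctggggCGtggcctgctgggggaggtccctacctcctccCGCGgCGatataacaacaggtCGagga
Epcam (chr17:87635729-87635978, plus strand): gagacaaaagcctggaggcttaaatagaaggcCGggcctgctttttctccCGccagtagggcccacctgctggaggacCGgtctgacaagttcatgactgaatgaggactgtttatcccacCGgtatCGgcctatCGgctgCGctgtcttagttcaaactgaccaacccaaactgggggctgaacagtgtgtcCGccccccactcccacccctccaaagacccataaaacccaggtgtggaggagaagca

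The ratio of observed to expected CpG was 0.710 in the Dazl window with 20 CpG pairs, 0.750 in Mael with 18, and 0.901 in Asz1 with 15. It was 0.527 in Krt18 with 12 CpG pairs and 0.405 in Epcam with 8. At 0.6 or more were 46.9% of all 16593 windows and 74.6% of 8298 windows of genes with a mean of at least 5 CPM. The luminal list, expressed in 23 of 24 genes, had 4 of 15 windows at 0.6 or more, and the basal list had 0 of 11. The list of hormone receptors and luminal transcription factors had 12 of 22, and the cell cycle and NuRD lists had 17 of 21 and 11 of 11.

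Over all 16593 protein-coding genes with a window, CpG content was higher in the classes of higher level. The share of windows at 0.6 or more was 11.2% for genes with no count, 23.9% under 1 CPM, 51.0% from 1 to 10 CPM, 74.2% from 10 to 100 CPM and 81.7% over 100 CPM, with medians of 0.187, 0.318, 0.610, 0.756 and 0.815. The letters TATAAA, on either strand, were in 23.7% of windows of genes with no count and in 5.91% of those over 100 CPM (11.9% of all). The letters GGGCGG, the core of the Sp1 site, went from 15.5% to 67.9% (44.4% of all), and the letters CCAAT from 34.8% to 37.9%. Median GC content went from 46.0% to 62.4% between these classes, which alone alters how often such letters occur.

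**Figure D5:**
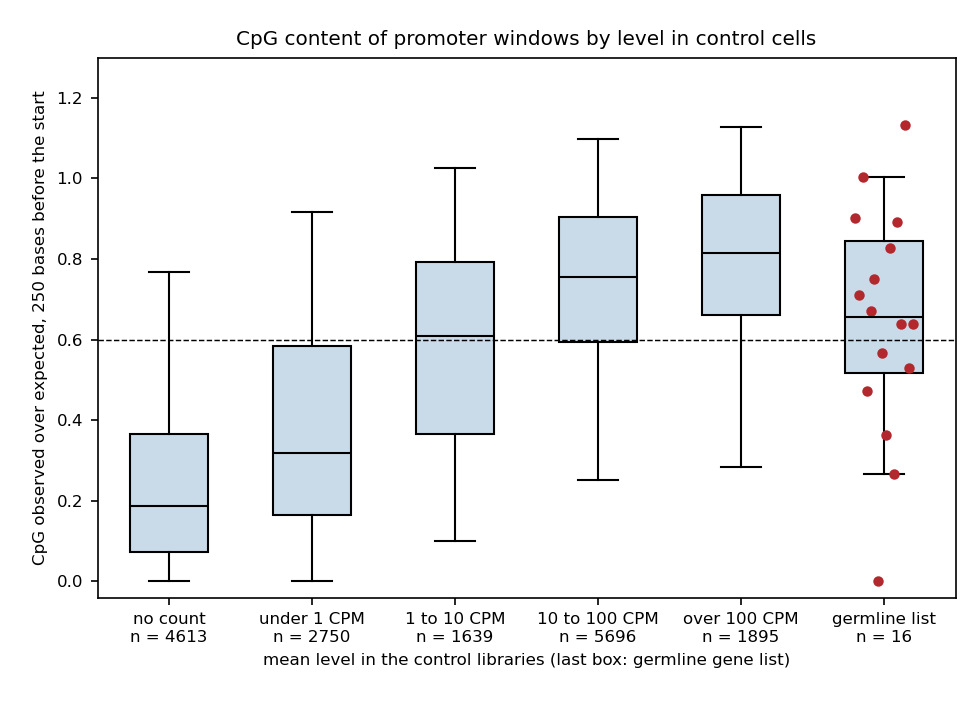
Observed over expected CpG content in the 250 bases before the start of protein-coding genes, by mean level in the 3 control libraries, with the germline list at the right. Boxes give the median and quartiles, whiskers the 5th and 95th percentiles, the dashed line is 0.6 and red points are single germline genes. The median is 0.187 with no count and 0.815 over 100 CPM, and the germline list has a median of 0.655.

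Of 21 imprinted genes 10 were expressed (47.6%) and 8 were at the floor. These counts lay near the shares of all protein-coding genes, 52.0% expressed and 36.9% at the floor. Peg3 had 190.4, 229.9 and 324 CPM and Snrpn had 33.1, 31.3 and 28.1 CPM, genes expressed from the paternal copy, and Igf2r, expressed from the maternal copy, was above 1 CPM as well. H19, the growth-restraining RNA next to Igf2, had 0.208, 0.507 and 0.294 CPM, and Dlk1, Meg3, Grb10, Peg10, Ndn and Nnat had no count. Meg3 and Dlk1 are neighbours in 1 imprinted domain, as H19 and Igf2 are in another, and in both domains the genes on the list were at or under 1 CPM. Allele of origin was not analysed here.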

How the data were processed

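Gene expression was measured by RNA sequencing, and the deposited table holds whole-number read counts of 55335 genes with no normalization by the authors. DRAGEN and DESeq2 1.44.0, and the builds mm10 and GRCm38.p6, are listed without their roles, per the submitters' processing notes. The annotation, the strand setting and the treatment of multi-mapped reads are not given in the sources used here. Columns were matched to libraries by the library names in the labels, and only the 3 control libraries were described, in groups as labelled. TMM factors of these libraries, CPM and the common dispersion came from edgeR 4.0.16 in R 4.3.3, and the code was tested on simulated counts. A gene was expressed at 1 CPM or more in each library and at the floor with at most 3 counts in each.

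Exon lengths (union of exons), positions and overlaps came from GENCODE M21 (GRCm38), in which 54587 identifiers were found with their version and 55154 without regard to it. A copy was near-identical at 95% identity over 50% of the longest coding transcript (minimap2 2.31). Spread between libraries was read for genes with a mean of at least 5 CPM. Promoter windows, 250 bases before the start nearest to that of GENCODE, came from RefSeq (GRCm38.p6) and were at hand for 16593 protein-coding genes. No pair of control libraries held identical values, and each pair differed by more than sampling noise (chi-square per degree of freedom of 27.4 or more).

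The members and the 41 gene lists (831 genes) were chosen with earlier results of these data known. The genes named were the 20 protein-coding genes highest by CPM, the 10 highest per kb, the 10 with the largest range among protein-coding genes with a mean of at least 5 CPM, the given markers and members of the lists. Alternatives were other scalings, expression limits of 0.5 and 2 CPM, other filters, the length of the longest transcript, and leaving out each library. Some genes of the lists are not reported by name here.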

Additional observations from a re-analysis of the deposited data

How the results depend on the processing

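The number of expressed genes (12364) ranged from 11590 at a limit of 2 CPM to 13161 at 0.5 CPM, and scaling by library totals, by DESeq2 size factors or by TMM over all 12 libraries left it between 12352 and 12364. Without 1 library at a time it was 12447 to 12595, and the number of genes with no count (32626) was 33559 to 33972. The number of genes of any type ranging at least 2-fold was 669. The filter of 5 CPM on the mean decided much of it, since 1 CPM gave 1248 and a mere count in every library gave 4105, and it was 66 to 544 without 1 library at a time. It was 66 without replicate 3 and 368 without replicate 1. The biological coefficient of variation (21.7%) was 13.2% to 26.6% without 1 library at a time, an alternative chosen after seeing the data, and the lowest value was without replicate 3. The cause of these shifts was not tested. With the length of the longest transcript, 9 of the 10 highest genes per kb were shared. Other orders per kb are not given with that length. The mean of 846 of 857 named genes moved by less than its SD with TMM over all 12 libraries, and of all 857 under the other scalings. Leaving out 1 of 3 libraries cannot move a mean by its SD, so no such count is given, and without replicate 3 the mean of Ccl20 went from 204 to 303 CPM and that of Cxcl2 from 53.3 to 79.3 CPM. No paired analysis was possible because only 1 group is described and no groups are compared. The 3 libraries allow no estimate of levels in other cultures of the line, and a gene with no count may still have a level of up to 3 counts in a library by counting error alone.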

Other observations

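Genes of fatty acid and cholesterol synthesis, a pathway that mammary epithelium uses to make milk fat, were all expressed (16 of 16, against 52.0% of protein-coding genes). Scd1 and Scd2, which place a double bond in fatty acids, had 1409.5, 1582 and 1179 CPM and 1635, 1687 and 1828 CPM, Fasn, the fatty acid synthase gene, had 659, 772 and 1315 CPM, and Srebf1, which regulates them, had 882, 967 and 1369 CPM. Per kb, Srebf1 (190.4 ± 46.2 CPM per kb) stood above Srebf2 (29.5 ± 2.23 CPM per kb), the regulator of cholesterol synthesis, by more than the SD of 3 libraries. No gene of the 16 ranged 2-fold or more between the libraries, near the 5.89% of protein-coding genes with a mean of at least 5 CPM. Fasn came nearest to 2-fold, with a highest library 1.995 times the lowest.

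Of 23 glycolysis and hypoxia genes 21 were expressed, against 52.0% of all protein-coding genes. Ldha, which makes lactate, had 913, 906 and 1005 CPM and Slc2a1, the main glucose transporter of many tumours, had 68.0, 55.3 and 100.4 CPM, whereas Slc2a3, another glucose transporter, had 0.506, 0.440 and 0.265 CPM. Of the lactate transporter genes, counts were unequal, with 170.1, 159 and 158 CPM for Slc16a1 and 0, 1 and 0 counts for Slc16a3. Car9, a carbonic anhydrase that marks hypoxia, had 27.4, 22.2 and 34.2 CPM. Of 15 stem cell and pluripotency genes 8 were expressed (53.3%, near the 52.0% of all protein-coding genes). Prom1 had 170.1, 169 and 174 CPM and Bmi1, of which a near-identical copy exists, had 122, 114 and 123 CPM, while Aldh1a1 had 0.922, 0.947 and 0.736 CPM, Procr had 1.46, 0.846 and 0.824 CPM and Lin28a had no count.

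Counts that the table gives to pseudogenes include some at the level of abundant genes. Rps2-ps10, a pseudogene of the ribosomal protein gene Rps2, had a mean of 3048 CPM, against 105 CPM for Rps2 itself. It was chosen after its values were seen. The treatment of reads that map to both was not tested.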
